A study of Mus musculus with 6 samples.

Results

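The 8 genes described here encode the kainate-type glutamate receptor subunits (Grik1, Grik2, Grik3, Grik4 and Grik5), the delta receptor subunit GluD1 (Grid1) and the kainate receptor auxiliary proteins Neto1 and Neto2. They were picked by gene name from 20040 entries in the deposited expression table, with earlier results of these data known, and all 8 were found in it. Neurons were grown in culture from the cortex of embryonic day 18 mice of the C57BL/6 background. Of the 6 mRNA libraries, 3 came from embryos labelled as KDM6B knockout (KO) and 3 from embryos labelled wild type (WT). Kdm6b encodes a demethylase that takes methyl groups off lysine 27 of histone H3, a mark of silenced genes, and the comparison asks which transcripts differ when this enzyme is disrupted. The allele, whether it was removed in all cells or by a Cre driver, the days in culture and the number of embryos per library are not stated in the labels. Since no label says that replicates are separate cultures, p-values reflect only how these libraries spread, and that spread may be technical.

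Kainate receptors are glutamate-gated cation channels that act on both sides of the synapse and modulate transmitter release, excitability and the growth of young neurites. GluK1, GluK2 and GluK3, made from Grik1, Grik2 and Grik3, can form channels by themselves, whereas GluK4 and GluK5, made from Grik4 and Grik5, bind glutamate with high affinity and need one of the other subunits to make a working channel. Neto1 and Neto2 are single-pass membrane proteins with CUB domains that bind these channels, slow their closing and affect their place at the synapse. GluD1 resembles glutamate receptors in sequence but works mainly as a synaptic organizer, held across the cleft by cerebellins that bind presynaptic neurexins.

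Expression is in TPM, a share of transcripts scaled by gene length that adds up to 1000000 in each library. The whole counts recovered behind these values are estimates. They added up to 19761740 to 23503686 per library, and each of the 8 genes rested on at least 426 counts in each library. Kdm6b, on chromosome 11 at 69398508 to 69413675, had 11.4 ± 0.536 TPM in KO and 30.6 ± 0.279 TPM in WT (SD, n = 3 each), which is 37.3% of the WT level (log2 fold change -1.39, limma adjusted p = 1.09e-05). Which part of the gene was deleted is not given, so this value covers intact and altered transcripts. Correlations of log2 values over 14983 genes were 0.987 to 0.988 within groups and 0.983 to 0.984 across groups. WT replicate 3 stood apart in the ribosomal RNA precursor Rn45s, at 6990 TPM against a range of 3750 to 4821 TPM elsewhere. The groups also differed in sex-linked RNA: Xist averaged 231.5 TPM in KO and 74.0 TPM in WT, and the Y-linked gene Eif2s3y averaged 0.157 TPM in KO and 43.7 TPM in WT. None of the 8 genes lies on X or Y, but sex mix and genotype cannot be told apart with these libraries.

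In KO neurons Neto2 fell to 79.6% and Grik3 to 87.8% of the WT level, and the other 6 genes did not pass the test. Thus 2 of 8 were called, both lower in KO, with limma on log2(TPM + 0.5) and a Benjamini-Hochberg adjusted p below 0.05 over 14983 genes. Over all tested genes 10.9% were called, 6.74% as lower and 4.15% as higher in KO. Log2 fold changes were below 0 in 5 genes and above 0 in 3, with a median of -0.04, against a median of -0.02 over all tested genes. In 4 of the 8, Neto2, Grik3, Grid1 and Grik1, no KO library reached the range of the WT libraries, and in each of these KO was lower. Such a lack of overlap was seen in 31.7% of all tested genes, and in 19.2% with KO lower. In these bulk samples, fewer cells of a type and less RNA per cell cannot be told apart.

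**Figure D1:**
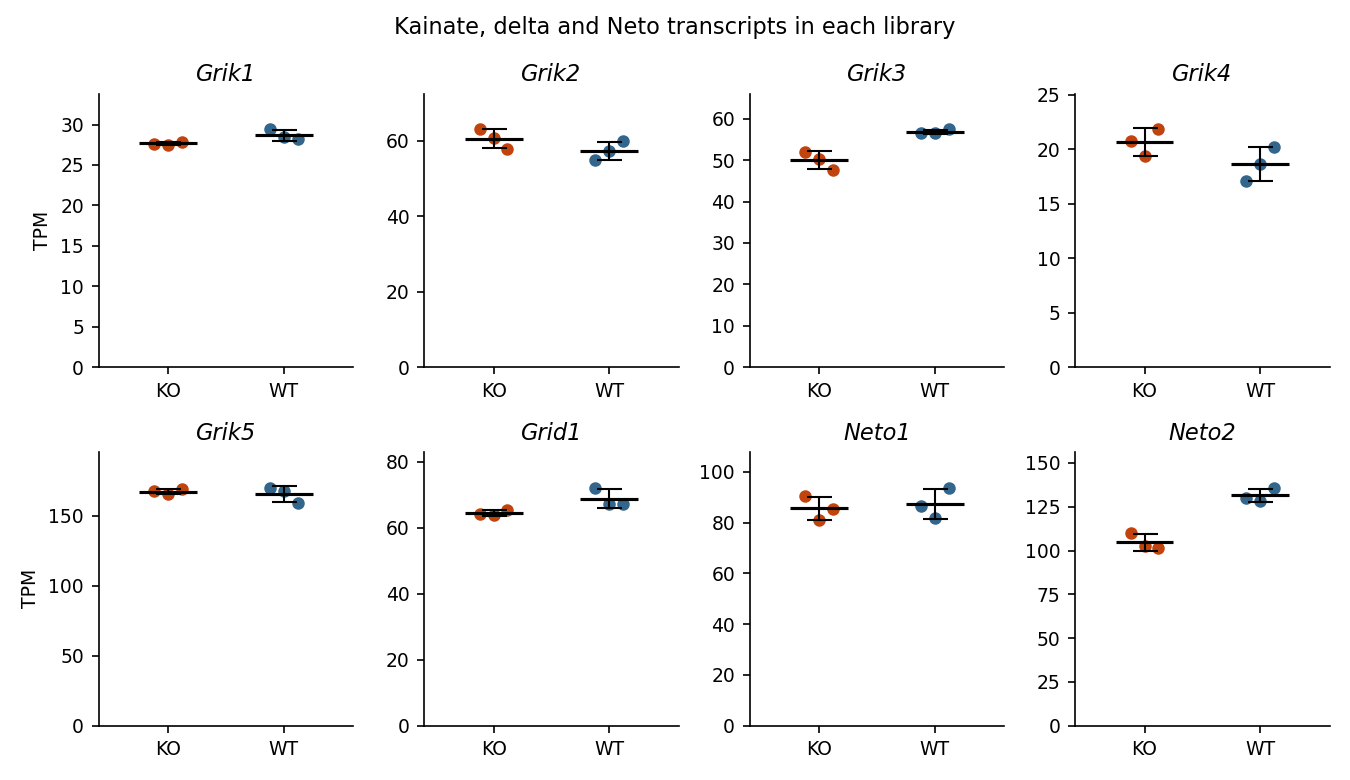
TPM of the 8 genes in each library, 3 KO (left) and 3 WT (right) per gene, with points for libraries and bars for the mean and SD. Neto2 lies between 101 and 110.1 TPM in KO and between 128 and 136 TPM in WT, and Grik3 between 47.7 and 51.9 TPM in KO and between 56.6 and 57.5 TPM in WT.

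The DNA just before the start sites of Neto2 and Grik3, the genes that fell, is shown with that of Grik5, the most abundant of the 8, as reference sequence and not as a measurement of these cells. Each stretch is the 250 bases before a RefSeq start on GRCm38.p6, read 5′ to 3′ on the strand of the gene, with each CG dinucleotide in capitals. Promoters dense in CG are a usual substrate of the Polycomb system, whose histone mark Kdm6b removes. The mark itself was not measured here.
Neto2: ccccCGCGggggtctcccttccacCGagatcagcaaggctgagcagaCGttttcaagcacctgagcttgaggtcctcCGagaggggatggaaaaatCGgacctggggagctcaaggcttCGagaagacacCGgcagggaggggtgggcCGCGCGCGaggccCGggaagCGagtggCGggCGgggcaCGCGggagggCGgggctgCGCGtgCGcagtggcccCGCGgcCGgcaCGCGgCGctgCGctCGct
Grik3: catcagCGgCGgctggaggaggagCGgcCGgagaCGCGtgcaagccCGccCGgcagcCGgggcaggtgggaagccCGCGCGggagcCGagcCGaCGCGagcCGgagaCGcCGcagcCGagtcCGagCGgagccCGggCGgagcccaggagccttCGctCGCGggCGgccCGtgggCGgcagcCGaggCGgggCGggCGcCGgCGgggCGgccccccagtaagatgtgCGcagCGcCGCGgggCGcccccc
Grik5: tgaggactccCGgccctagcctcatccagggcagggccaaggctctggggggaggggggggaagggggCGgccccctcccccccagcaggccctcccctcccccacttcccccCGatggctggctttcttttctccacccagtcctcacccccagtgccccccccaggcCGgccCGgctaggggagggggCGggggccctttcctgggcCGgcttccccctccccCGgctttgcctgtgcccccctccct
The Neto2 stretch is chr8:85700925-85701174 on the minus strand, the Grik3 stretch chr4:125490446-125490695 on the plus strand and the Grik5 stretch chr7:25072370-25072619 on the minus strand. RefSeq has a second Neto2 start inside the gene, whose stretch at chr8:85691010-85691259 held 0 CG dinucleotides and is not printed. At the start printed, Neto2 had 30 CG dinucleotides, Grik3 42 and Grik5 8, against a median of 6 over 32851 promoters of the same length. Fewer were found in 94.1% of promoters than in that of Neto2, in 99.1% than in that of Grik3 and in 57.0% than in that of Grik5. Of the other genes with an entry, Grik4 had 36 and Grik2 20, so a CG-dense start was shared by genes that fell and genes that did not pass the test. The GC box, GGGCGG on either strand, occurred 6 times in the Grik3 stretch, 2 times in that of Neto2, 2 times in that of Grik5, 1 time in that of Grik4 and 0 times in that of Grik2, and 32.7% of all promoters held at least 1. The TATA box, TATAAA on either strand, was in none of these 5 stretches and in 12.4% of all promoters. Grik1, Grid1 and Neto1 are named only.

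Grik3 fell among the subunits that can form channels by themselves. Its product, GluK3, is a subunit with low glutamate affinity that is often found at presynaptic sites. The gene lies on chromosome 4 at 125490700 to 125714173 (plus strand, GRCm38). Grik3 had 51.9, 50.4 and 47.7 TPM in KO replicates 1, 2 and 3, against 56.6, 56.6 and 57.5 TPM in WT replicates 1, 2 and 3. The highest KO library lay below the lowest WT library, and the coefficient of variation was 4.28% in KO and 0.875% in WT. The WT value lay below the 1.71% that counting alone would give at this depth. The means were 49.99 ± 2.14 TPM in KO and 56.9 ± 0.498 TPM in WT (SD, n = 3 each), resting on 2787 to 3814 counts. The log2 fold change came to -0.19 ± 0.04 (SE), with a 95% interval of -0.27 to -0.10 and an adjusted p of 0.0195 from limma, and 23.7% of tested genes had a larger absolute change. The call was not stable. Among the settings that changed the variance model or the libraries it was lost without the variance trend (adjusted p = 0.0578) and when KO replicate 2 (0.0579), KO replicate 3 (0.0506), WT replicate 1 (0.0659), WT replicate 2 (0.0564) or WT replicate 3 (0.0603) was left out, though the log2 fold change stayed between -0.21 and -0.15.

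Grik2 encodes GluK2, a channel-forming subunit found widely in the forebrain, and was not called. It lies on chromosome 10 at 49094833 to 49788766 on the minus strand. Grik2 had 63.0, 60.6 and 57.8 TPM in KO, against 54.8, 57.2 and 59.8 TPM in WT. The groups overlapped, with KO replicate 3 inside the WT range and WT replicate 3 close to KO replicate 2. Its KO mean was 105.6% of the WT mean, with a log2 fold change of 0.08 ± 0.04 (SE, limma adjusted p = 0.317). The 95% interval ran from 98.3% to 113.4% of the WT level.

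Grik1 encodes GluK1, a subunit found in many cortical interneurons, and had the smallest spread in KO of the 8 genes. It lies on chromosome 16 at 87895900 to 88290265 on the minus strand. Grik1 had 27.6, 27.5 and 27.9 TPM in KO, against 29.4, 28.4 and 28.2 TPM in WT. All KO libraries were below all WT libraries, but the gap between the closest of them was small, from 27.9 TPM in KO to 28.2 TPM in WT. The log2 fold change came to -0.05 ± 0.04 (SE, adjusted p = 0.45 from limma), with a 95% interval of 90.9% to 102.5% of the WT level. The KO coefficient of variation of 0.783% lay below the 3.67% that counting alone would give at this depth.

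The high-affinity subunits Grik4 and Grik5 were not called. Grik5 encodes GluK5, the most widespread of the high-affinity subunits in the brain, and lies on chromosome 7 at 25009849 to 25072346 on the minus strand. Grik5 had 167, 165 and 169 TPM in KO, against 170.0, 168 and 159 TPM in WT. The KO values all lay inside the WT range, and WT replicate 3 was the lowest library. A log2 fold change of 0.01 ± 0.03 was found (SE, adjusted p = 0.815 from limma), with a 95% interval of 96.2% to 106.0% of the WT level, and the sign turned to -0.01 without WT replicate 3. Of all tested genes, 89.8% had a larger absolute change.

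Grik4 encodes GluK4, a subunit best known from hippocampal mossy fibre synapses, and was the least abundant of the 8 genes. It lies on chromosome 9 at 42518135 to 42944493 on the minus strand. Grik4 had 20.8, 19.4 and 21.9 TPM in KO, against 17.1, 18.6 and 20.2 TPM in WT. KO replicate 2 fell inside the WT range and WT replicate 3 inside the KO range, so the groups overlapped. The log2 fold change of 0.15 ± 0.07 (SE, limma adjusted p = 0.249) was the largest above 0 among the 8, with a 95% interval of 98.5% to 124.2% of the WT level. The smaller count, 426 to 534 per library, gave a counting coefficient of variation of 4.50%, the highest of the 8 genes.

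Grid1 was lower in each KO library than in any WT library but missed the threshold after adjustment. It lies on chromosome 14 at 34820108 to 35583379 on the plus strand. Grid1 had 64.1, 63.9 and 65.4 TPM in KO, against 72.1, 67.0 and 67.1 TPM in WT. WT replicate 1 stood above the other WT libraries, which lay closer to KO than to it. The means were 64.4 ± 0.820 TPM in KO and 68.7 ± 2.90 TPM in WT (SD, n = 3 each), with a log2 fold change of -0.09 ± 0.04 (SE, limma unadjusted p = 0.0367, adjusted p = 0.156). The 95% interval was 88.6% to 99.5% of the WT level. The microRNA gene Mir346 lies within the Grid1 locus on the same strand and has an entry of its own in the table.

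Of the auxiliary proteins, Neto2 fell in KO. Neto2 lies on chromosome 8 at 85636588 to 85700924 on the minus strand, and its protein binds kainate receptors and also the neuronal chloride transporter KCC2. Neto2 had 110.1, 102 and 101 TPM in KO replicates 1, 2 and 3, against 130.2, 128 and 136 TPM in WT replicates 1, 2 and 3. The groups were far apart compared with their spread: the highest KO library lay 18.4 TPM below the lowest WT library. The means were 105 ± 4.71 TPM in KO and 132 ± 3.87 TPM in WT (SD, n = 3 each), resting on 3787 to 5756 counts per library. This is a log2 fold change of -0.33 ± 0.04 (SE), with a 95% interval of -0.42 to -0.24 and an adjusted p of 0.00201 from limma, and 11.2% of tested genes had a larger absolute change. The call held in 16 of 16 other settings that changed the scaling, filter, variance model or libraries, with log2 fold changes of -0.37 to -0.30 and adjusted p of 5.78e-09 to 0.02. An opposite-strand microRNA gene, Mir8109, lies in the Neto2 locus and has an entry of its own in the table. The strand setting is not known, and whether any reads are shared between them was not tested.

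Neto1, on chromosome 18, was not called. Its protein joins both kainate and NMDA receptors. Neto1 had 90.4, 81.2 and 85.4 TPM in KO, against 86.8, 82.0 and 93.8 TPM in WT. The groups overlapped over most of their range. The change on the log2 scale was -0.03 ± 0.06 (SE, adjusted p = 0.792 from limma), and its 95% interval of 89.5% to 107.2% of the WT level did not reach the 79.6% measured for Neto2. The sign of the Neto1 change turned, to 0.01 without KO replicate 2 and 0.02 without WT replicate 3.

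**Figure D2:**
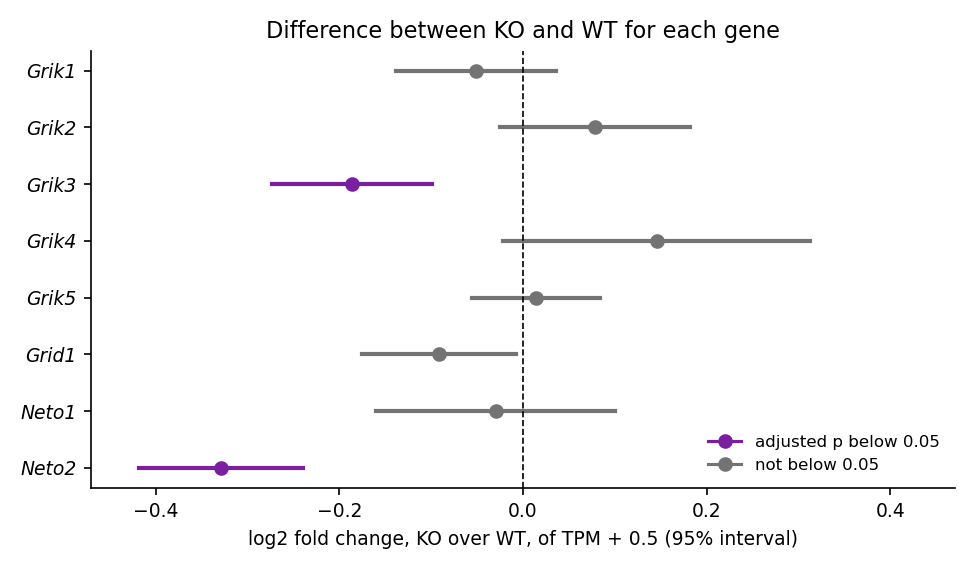
Log2 fold change of KO over WT for the 8 genes on the log2(TPM + 0.5) scale, with points for the estimate and bars for its 95% interval. The intervals of Neto2 (-0.42 to -0.24), Grik3 (-0.27 to -0.10) and Grid1 (-0.18 to -0.01) lie below 0, and Grid1 did not pass after adjustment.

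**Figure D3:**
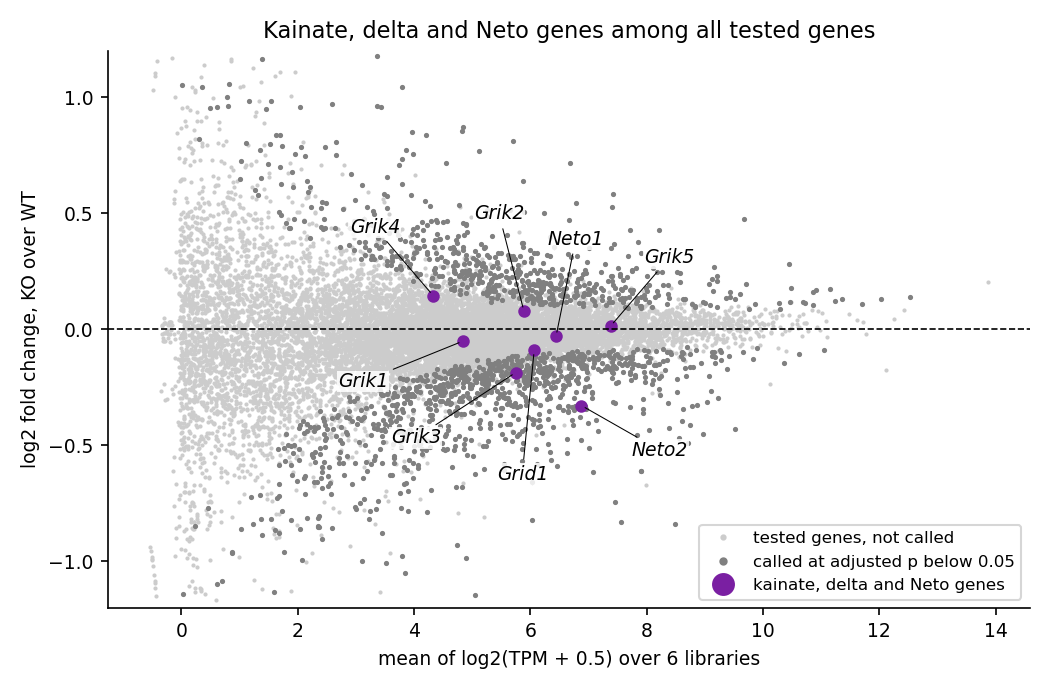
Log2 fold change of KO over WT against the mean of log2(TPM + 0.5) over the 6 libraries for all tested genes, with called genes darker and the 8 genes marked; 152 genes beyond 1.2 on either side of 0 are outside the plot. Neto2 and Grik3 lie within the cloud of other genes, where 11.2% and 23.7% of genes had larger absolute changes.

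**Figure D4:**
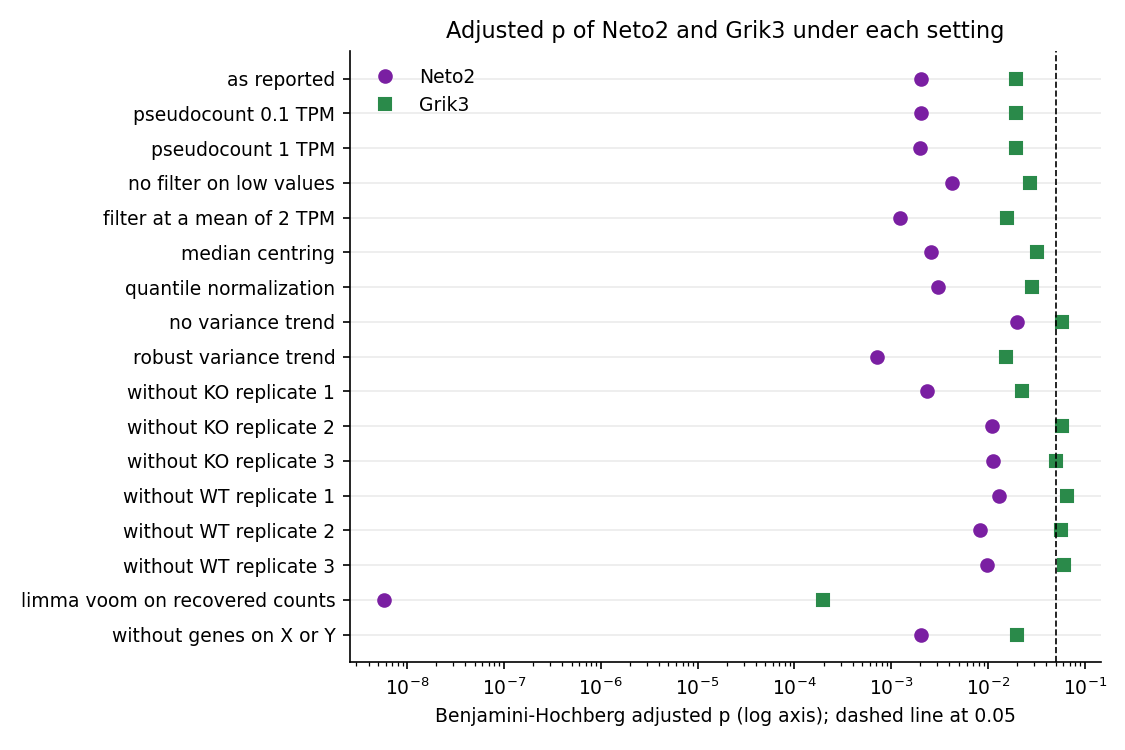
Benjamini-Hochberg adjusted p (log axis) of Neto2 and Grik3 for the comparison of KO with WT, as reported and under 16 of the 17 other settings, the replicate block not being drawn, with the dashed line at 0.05. Neto2 stays left of the line in all those drawn, and among them Grik3 crosses it without the variance trend and without 5 of the 6 libraries.

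The order of the levels was the same in KO and in WT. From highest to lowest it ran Grik5, Neto2, Neto1, Grid1, Grik2, Grik3, Grik1 and Grik4 in TPM, which is scaled by gene length. In KO no neighbours in this order overlapped between libraries. In WT Grik2 and Grik3 overlapped, at 57.3 ± 2.47 and 56.9 ± 0.498 TPM (SD, n = 3 each), and no other neighbours did. The mean level of Grik5 was above that of 91.7% of tested genes and that of Grik4 above 46.2%.

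The summed level of the kainate receptor subunits was nearly equal in the groups, while the Grik3 share was lower in each KO library than in any WT library. Grik1 to Grik5 together held 331, 323 and 324 TPM in KO, against 328, 328 and 325 TPM in WT. The totals overlapped. Grik3 made up 15.7%, 15.6% and 14.7% of that sum in KO, against 17.3%, 17.2% and 17.7% in WT, and these values did not overlap. The level of Grik3 relative to Grik2 was 0.824, 0.832 and 0.824 in KO, against 1.03, 0.990 and 0.962 in WT, so the Grik3 transcript was the lesser one in each KO library and about level with Grik2 in WT. Grik5 held 51.3 ± 0.746% of the sum in KO and 50.6 ± 1.47% in WT, and Grik4 held 6.34 ± 0.378% in KO and 5.71 ± 0.503% in WT (SD, n = 3 each). Grik2 held 18.6 ± 0.628% in KO and 17.5 ± 0.852% in WT, and the Grik2, Grik4 and Grik5 shares overlapped between the groups. The Grik1 share did not, at 8.35%, 8.50% and 8.61% in KO, against 8.97%, 8.66% and 8.68% in WT. The shares come from the values tested above and have no test of their own.

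Set against the subunits, Neto2 was the auxiliary transcript that was lower in KO, and Neto1 was not called. Per unit of summed Grik1 to Grik5, Neto2 held 0.333, 0.317 and 0.313 in KO, against 0.397, 0.391 and 0.418 in WT. These values did not overlap, and the ratios have no test of their own. Neto1 and Neto2 together held 200.5, 184 and 187 TPM in KO, against 217, 210.5 and 229.7 TPM in WT. Both together held 0.606, 0.569 and 0.577 per unit of summed Grik1 to Grik5 in KO, against 0.662, 0.641 and 0.707 in WT. No KO library reached the WT range in either measure, most of the difference being that of Neto2. Neto2 made up 55.0 ± 0.759% of the Neto sum in KO and 60.1 ± 0.936% in WT (SD, n = 3 each), which did not overlap either. Neto2 remained the more abundant transcript in all 6 libraries.

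**Figure D5:**
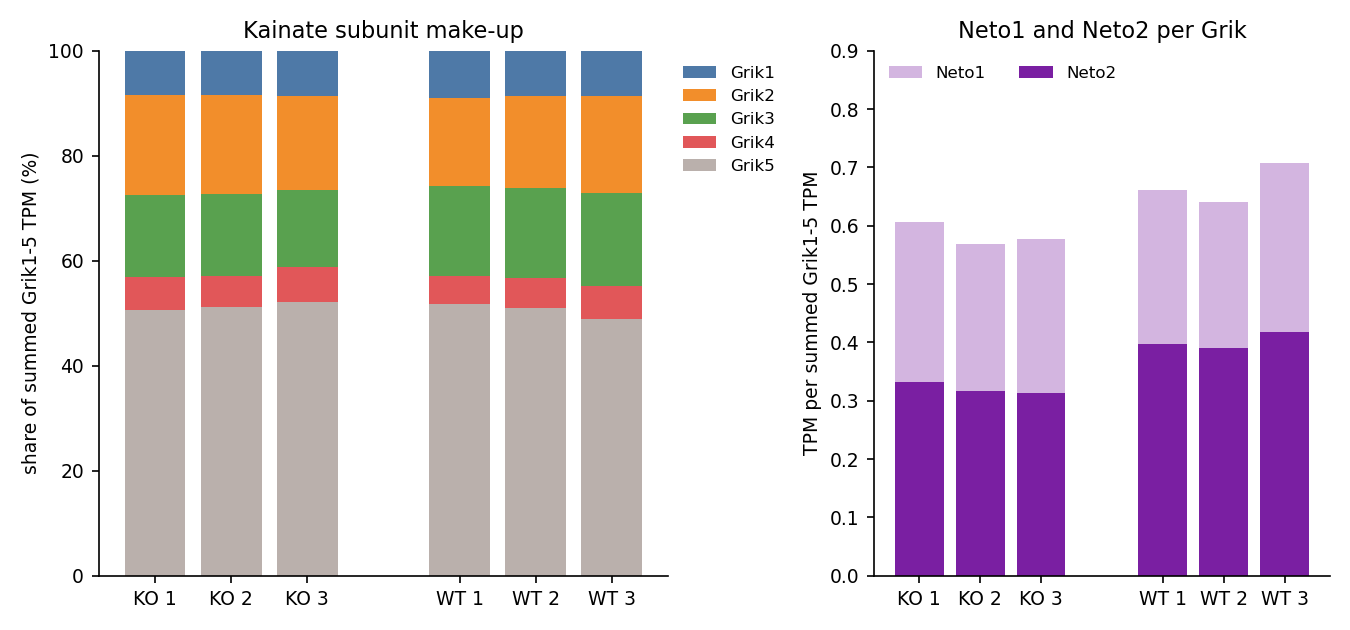
Shares of Grik1 to Grik5 in their summed TPM (percent) and level of Neto1 and Neto2 per summed Grik, by library, with the 3 KO libraries left of the 3 WT libraries. Grik3 holds 14.7% to 15.7% in KO and 17.2% to 17.7% in WT.

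The other ionotropic glutamate receptors were compared with the same test. For these and the lists that follow, the share called over all tested genes was 6.74% lower and 4.15% higher in KO. The median log2 fold change of all tested genes was -0.02. Of the 4 AMPA receptor subunits 2 fell in KO, 0 rose and 2 were not called, with a median log2 fold change of -0.15. Gria3, among those that fell, is X-linked, and for it too sex mix and genotype cannot be told apart. Of the 7 NMDA receptor subunits 6 were tested, of which 3 fell, 0 rose and 3 were not called, with a median of -0.16. The summed AMPA subunits held 641 TPM in KO and 712 TPM in WT, which is 90.1%, and the summed NMDA subunits 467 TPM in KO and 517 TPM in WT, which is 90.3%. The kainate subunits, with 1 of 5 called, had a median log2 fold change of 0.01. Differences between these families were not tested. Grin2d, an NMDA subunit of interneurons and young neurons, was the lowest of the called subunits relative to WT, at 66.4% (5.50 ± 0.279 TPM in KO and 8.27 ± 0.897 TPM in WT, SD, n = 3 each, limma adjusted p = 0.0116). Its call was lost without WT replicate 1 (adjusted p = 0.0551).

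Genes for the cerebellins that GluD1 binds, the related C1q-like proteins and the neurexins moved in both directions. Of 11 cerebellins, C1q-like proteins and neurexins 10 were tested, of which 2 fell, 1 rose and 7 were not called, with a median log2 fold change of -0.01. Cbln4, a secreted cerebellin, had 40.6, 38.5 and 35.8 TPM in KO, against 21.1, 19.5 and 21.3 TPM in WT. Every KO library lay well above every WT library, and the level was 1.85-fold that of WT (log2 fold change 0.87, limma adjusted p = 0.000233). C1ql3, a C1q-like protein secreted at synapses, had 88.7, 81.6 and 80.2 TPM in KO, against 109, 119 and 120.3 TPM in WT. It fell to 72.0% of the WT level (log2 fold change -0.47, limma adjusted p = 0.00145). The neurexin gene Nrxn3 fell to 87.9% (limma adjusted p = 0.0209), a call lost without the variance trend and without KO replicate 2, KO replicate 3, WT replicate 2 or WT replicate 3, with an adjusted p of up to 0.073 when a library was left out.

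Of 14 genes for scaffolds, trafficking and turnover of kainate receptors, 2 fell, 1 rose and 11 were not called, with a median log2 fold change of -0.05. Over all tested genes 10.9% were called in either direction, with a median of -0.02. Nsf, the ATPase that takes apart SNARE complexes, fell to 87.1% of the WT level (382 ± 2.70 TPM in KO and 439 ± 5.81 TPM in WT, SD, n = 3 each, limma adjusted p = 0.00133). Cdh2, which encodes N-cadherin, rose to 112.3% (limma adjusted p = 0.00885), a call lost without the variance trend. Dlg2, which encodes the scaffold PSD-93, fell to 93.7% (limma adjusted p = 0.0265), a call lost under both other scalings, without the variance trend (0.112) and when any library but KO replicate 1 was left out (up to 0.0932). The scaffold genes Dlg1, Dlg3, Dlg4, Pick1, Grip1 and Grip2 and the genes of the Cul3 ligase that turns over GluK2, Cul3 and Klhl17, were among the 11 not called.

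Of 11 genes for modification and RNA editing of kainate receptors, 3 fell, 0 rose and 8 were not called, with a median log2 fold change of -0.03. Prkcb, a protein kinase C gene, fell to 88.4% (limma adjusted p = 0.00478). Ppp3ca, which encodes a catalytic subunit of calcineurin, fell to 91.2% (limma adjusted p = 0.00513), a call lost without the variance trend at 0.0501. Adarb1, the deaminase that edits the pore codon of Grik1 and Grik2 transcripts, had 57.0, 57.1 and 56.2 TPM in KO, against 63.6, 66.5 and 61.7 TPM in WT. It fell to 88.8% (limma adjusted p = 0.0205), and the call was lost without the variance trend and without any library but WT replicate 3, with adjusted p of up to 0.0703. Editing itself cannot be read from expression values.

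Among markers of the cell types that the cultures could hold, some fell and some rose in KO. Of 19 GABAergic interneuron markers 12 fell, 2 rose and 5 were not called, with a median log2 fold change of -0.27, and their summed level was 1502 to 1560.2 TPM in KO and 1915 to 1978 TPM in WT. Of 12 excitatory neuron markers 4 fell, 2 rose and 6 were not called, with sums of 816 to 858 TPM in KO and 1071 to 1091 TPM in WT and a median log2 fold change of -0.12. Most of the difference in that sum was in 1 gene, the vesicular glutamate transporter Slc17a7, with 269 TPM in KO and 479.8 TPM in WT. Relative to WT, Slc17a6 fell furthest of the 12, to 15.9%, with 3.71 TPM in KO and 23.3 TPM in WT (limma adjusted p = 6.23e-05). Neurod2 fell to 73.0% (limma adjusted p = 0.00131), while Fezf2 rose to 128.0% (limma adjusted p = 0.00138). The labelled neurons thus held markers of both neuron classes in all 6 libraries. Of 10 astrocyte markers 1 fell, 3 rose and 6 were not called, with sums of 5196 to 5386 TPM in KO and 4647 to 4815 TPM in WT, so glial transcripts were abundant too. The median of that list was -0.05, opposite to its sum, in which Fabp7 held 2743 TPM in KO and 2509 TPM in WT and Aldoc 965 TPM in KO and 694 TPM in WT. The marker that fell was Aldh1l1, to 86.6% of the WT level (limma adjusted p = 0.00805). The Fabp7 call (limma adjusted p = 0.0454) was lost in 9 of 17 other settings. The part of these shifts in the lower Neto2 and Grik3 was not tested.

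Markers of other cells were measured too. Of 9 oligodendrocyte lineage markers 8 were tested, of which 2 fell and 6 were not called, with sums of 656 to 684 TPM in KO and 654 to 694 TPM in WT. Of 7 microglia markers 1 was tested and not called, with sums of 1.99 to 4.17 TPM in KO and 1.65 to 1.87 TPM in WT. Of 6 endothelial markers 3 were tested, of which 1 fell, with sums of 7.58 to 8.51 TPM in KO and 10.4 to 11.9 TPM in WT. Of 6 fibroblast and pericyte markers 3 rose and 3 were not called, with sums of 50.7 to 61.2 TPM in KO and 39.7 to 42.6 TPM in WT. No listed marker was at 0 in all libraries.

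Some genes followed Neto2 and Grik3 closely across the 6 libraries, by the root mean square difference of log2 profiles centred on their own mean, among 13110 genes. The nearest to Neto2 was Map2k1, the MAP kinase kinase MEK1, at 0.0177, followed by the potassium channel gene Kcnj2 at 0.0244 and Rcan2, a regulator of calcineurin, at 0.0248. Map2k1 had 159.9, 150.3 and 151 TPM in KO, against 189, 189.9 and 195 TPM in WT, and fell to 80.4% (limma adjusted p = 0.0011). Rcan2 fell to 80.2% (limma adjusted p = 0.00409), and Kcnj2, at 77.3% and 91 to 139 counts per library, was not called (0.11). The nearest to Grik3 was Pam, an enzyme that amidates neuropeptides, at 0.0140, followed by Ppapdc2 at 0.0157 and Sbno1 at 0.0158. Pam had 145, 140.4 and 130.4 TPM in KO, against 158, 156 and 157 TPM in WT (limma adjusted p = 0.0249), a call lost without the variance trend and without KO replicate 2, WT replicate 1, WT replicate 2 or WT replicate 3, with adjusted p of up to 0.0881. Sbno1 fell to 87.7% (limma adjusted p = 0.0141), a call lost without the variance trend and without WT replicate 1 (0.053 without that library), and Ppapdc2, at 89.1%, was not called (0.0644). These genes were picked for their likeness to profiles that differ between the groups, so their differences add no independent evidence.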

How the data were processed

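The deposited values are TPM per gene in 6 libraries, made by the authors. Each column adds up to 1000000 although the table is named for FPKM. The build mm10 and the tools TopHat, featureCounts, edgeR, Picard 1.127, FastQC 0.11.2 and bcl2fastq 2.17 come with no role, per the submitters' processing notes. Annotation and strand setting: not given in the sources used here. Per the labels' protocols, total RNA was treated with DNase I and a KAPA kit gave the mRNA libraries. Because TPM is a share of each library, a rise of abundant genes lowers all others.

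TPM equals a whole count divided by a whole length and scaled by library, and whole counts fitting this were recovered for 19369 of 19369 entries above 0 (100.0%), within 1e-05 counts plus 1e-09 of the value. They give the depth and serve 1 alternative test. The smallest whole length that fitted was taken, so a count could be understated. Totals and counts per gene rest on the lengths found in this way and are estimates. Counting error is the least error a value can have.

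Genes averaging 0.5 TPM or more over the 6 libraries, 14983 in all, were tested, KO against WT, with limma 3.58.1 (R 4.3.3) on log2(TPM + 0.5) with a variance trend, no covariates and Benjamini-Hochberg adjustment over all of them. On this scale the changes of low genes are understated. Alternatives changed the pseudocount, filter, scaling, variance model, libraries and replicate block, or used limma voom on recovered counts. Leaving out genes on X or Y was added after seeing the data. The pipeline was tested on simulated data with a fixed, small spread beyond counting (overdispersion 0.0005). Some genes here, Neto1 among them, spread more, so that test does not cover their spread. The members and lists were chosen with earlier results of these data known. Text names all 8 genes, Kdm6b, up to 4 called genes per list with the smallest p, or 2 as values where none was called, and the 3 nearest profiles of each called member. Some marker genes picked by this rule are given only within the counts of their lists. Some list members are not reported here by name. Xist, Eif2s3y and Rn45s, outside this rule, describe the libraries. Gene positions are from GENCODE M21 on GRCm38, the build of mm10, where 94.6% of names were found, and promoters are from RefSeq on GRCm38.p6.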

Additional observations from a re-analysis of the deposited data

How the results depend on the processing

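Direction and side of the threshold held for Grik1, Grik2, Grik4, Grid1 and Neto2 in all 17 alternatives, though with 1 library left out the log2 fold changes of the uncalled genes ranged from -0.06 to -0.03 for Grik1, 0.05 to 0.11 for Grik2, 0.09 to 0.20 for Grik4 and -0.11 to -0.06 for Grid1. For Grik3 the log2 fold change was -0.19 without the variance trend and -0.19 with the replicate block, past the threshold in neither (adjusted p = 0.0578 and 0.0606), and -0.21 to -0.15 with 1 library left out. The sign of Grik5 turned without WT replicate 3 (-0.0143), within a range of -0.0143 to 0.0337 over single libraries left out, and that of Neto1 without KO replicate 2 (0.00804) and WT replicate 3 (0.0208), within -0.0754 to 0.0208. Calls among the 8 genes numbered 1 lower without the variance trend and with the replicate block, and 1 to 2 with 1 library left out. Over the whole table, 658 genes were lower and 406 higher without the variance trend, 585 lower and 360 higher with the replicate block, 493 to 678 lower and 345 to 440 higher with 1 library left out, and 1183 higher with limma voom. Higher calls were 53.1% after median centring (867 higher, 767 lower) and 49.2% after quantile normalization, against 38.1% as reported. Same-numbered KO and WT libraries had deviations correlated at 0.00775, -0.0511 and 0.0110, and not every library correlated best with its own number, so the numbers were not taken as pairs. The calls of Nrxn3, Dlg2 and Sbno1 were also lost with the replicate block.

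Among the lists, AMPA calls numbered 1 lower without genes on X or Y, since Gria3 is X-linked, and NMDA calls 1 higher with limma voom. Calls among cerebellins, C1q-like proteins and neurexins numbered 1 lower without the variance trend, 1 lower with the replicate block and 1 to 2 with 1 library left out. For scaffolds it was 1 lower after median centring, quantile normalization, without the variance trend and with the replicate block, 1 to 2 with 1 library left out, and 0 higher without the variance trend. For modification it was 1 lower without the variance trend and 1 higher with limma voom. With counts in place of TPM, which are not scaled by length, the KO minus WT difference was -0.08 points for the Grik1 share, -3.22 for the Grik3 share and -0.31 for Grik3 per Grik2. Unless named, causes of these changes were not tested. Depth limits Grik4 most, at 426 to 534 counts, and 3 libraries per group limit every comparison.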
